A study of Homo sapiens with 4 samples.

Results

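The genes examined mostly encode heterogeneous nuclear ribonucleoproteins (hnRNPs) and RNA-binding motif (RBM) proteins. They were taken as every gene symbol in the deposited transcript table that begins with HNRNP, or with RBM followed by a digit. Of 23217 gene symbols, 64 met this rule (25 hnRNP and 39 RBM symbols, with 133 of the 44578 listed transcripts). The FPKM of all transcripts of a symbol was summed (fragments of RNA per unit length of the transcript, relative to all fragments mapped), and 57 genes had a mean over both conditions of at least 1 FPKM, 22 of them hnRNP and 35 RBM genes. This was 89.1% of the symbols that met the rule, against 53.1% of all symbols. The 57 include 5 antisense, read-through or pseudogene entries, which are counted as hnRNP or RBM genes by their symbol. RBM26-AS1, at a mean of 1.03 FPKM, lay just inside this limit, and HNRNPA3P1, at 0.404 FPKM, just outside it.

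The cells were LV-M100, a single clone of the breast cancer line MDA-MB-231 that was isolated for low variability from cell to cell. RNA was collected 48 h after transfection with siRNA by lipofection and was sequenced after removal of ribosomal RNA. The siControl condition held 1 library with the NC1 control siRNA and 1 with the BLOCK-iT Fluorescent Oligo, and the siSNRNP40 condition held 1 library for each of 2 siRNAs against SNRNP40. The comparison asked how transcript levels differ when SNRNP40, a protein of the U5 particle of the spliceosome, is depleted. The table gives 1 pooled FPKM per condition, so no value below has an error, a replicate count or a test, and "higher" and "lower" compare those 2 pooled values only. The depth of the libraries is unknown because no read counts are given.

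hnRNPs coat nascent transcripts in the nucleus and influence which exons are joined, where the transcript is cleaved and how it leaves the nucleus. RBM proteins share RNA recognition motifs rather than a common pathway, and include parts of the spliceosome, adaptors of RNA decay and of RNA methylation, and regulators of mRNA stability. Many members of both groups regulate the splicing of their own or each other's transcripts, often by including an exon that sends the mRNA to nonsense-mediated decay.

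The siRNAs are shown because they define the comparison. Neither 18-base sequence, nor its complement, was found whole in the 798 transcripts that GENCODE release 44 annotates for these genes, whereas the first was found in 3 and the second in 2 annotated transcripts of SNRNP40. Matches of the seed alone were not searched.
siSNRNP40 #1: ggaauagacaaugauauc
siSNRNP40 #2: ggauuugaccgacugaua
SNRNP40 stood at 40.4 FPKM in siControl and 6.12 FPKM in siSNRNP40, a log2 difference of -2.72. Markers of the parental line were present in both conditions, with VIM at 750 and 733 FPKM, CD44 at 116 and 141 FPKM and KRT18 at 158 and 131 FPKM. CDH1, ESR1 and PGR stayed below 0.1 FPKM, and PTPRC, a marker of blood cells, was listed at 0.

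As a group, the hnRNP and RBM genes differed little between the conditions. Their summed FPKM was 3642 in siControl and 3460 in siSNRNP40, or 0.706% and 0.669% of all FPKM in the table. The hnRNP genes accounted for 2504 and 2339 FPKM (log2 difference -0.10) and the RBM genes for 1138 and 1121 FPKM (-0.02). In RNA from a whole culture, fewer cells expressing a gene and less of its RNA per cell cannot be told apart. The median log2 difference was -0.06 over 22 hnRNP genes and 0.03 over 35 RBM genes, against 0.0034 over the 12334 genes that passed the same limit with a value above 0 in both conditions. Among hnRNP genes 15 of 22 were lower in siSNRNP40, and among RBM genes 17 of 35, where 49.5% of all genes were lower. The absolute log2 difference was under 0.25 for 48 of 57 members (84.2%, against 66.3% of all genes), and its median was 0.13 against 0.17. Members also had higher levels, with a median of 24.1 FPKM against 10.7 FPKM. Read against genes of their own level, the median was 0.26 against 0.25 between 1 and 5 FPKM. It was 0.15 against 0.16 between 5 and 25 FPKM, 0.13 against 0.14 between 25 and 100 FPKM, and 0.12 against 0.13 above 100 FPKM.

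Summed levels differed by more than 0.5 on the log2 scale for 4 of 57 members (7.02%), against 10.3% of all genes. RBM24 was the 1 member higher by that much, against 5.24% of all genes, and RBM26-AS1, RBM7 and RBM47 were lower, against 5.06%. In their lower condition RBM24 (0.999 FPKM in siControl) and RBM26-AS1 (0.790 FPKM in siSNRNP40) were under 1 FPKM. These 2 genes therefore passed the filter on mean FPKM only through the condition where they were higher. RBM24 was also the 1 member that differed by more than 1, against 1.47% of all genes. With a pseudocount of 1 FPKM in each condition RBM24 stood at 0.84, below that limit, and RBM47 (-0.39) and RBM26-AS1 (-0.35) no longer passed 0.5. Genes of low FPKM spread more, so members were also read against genes of their own level. Between 1 and 5 FPKM, 5% of the 3775 genes lay below -0.64 and 5% above 0.74, and RBM24 and RBM26-AS1 lay outside these bounds. Between 5 and 25 FPKM the bounds over 5219 genes were -0.45 and 0.40, and RBM7 lay below them. Above 25 FPKM none of the 27 members lay outside the bounds of its level.

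**Figure D1:**
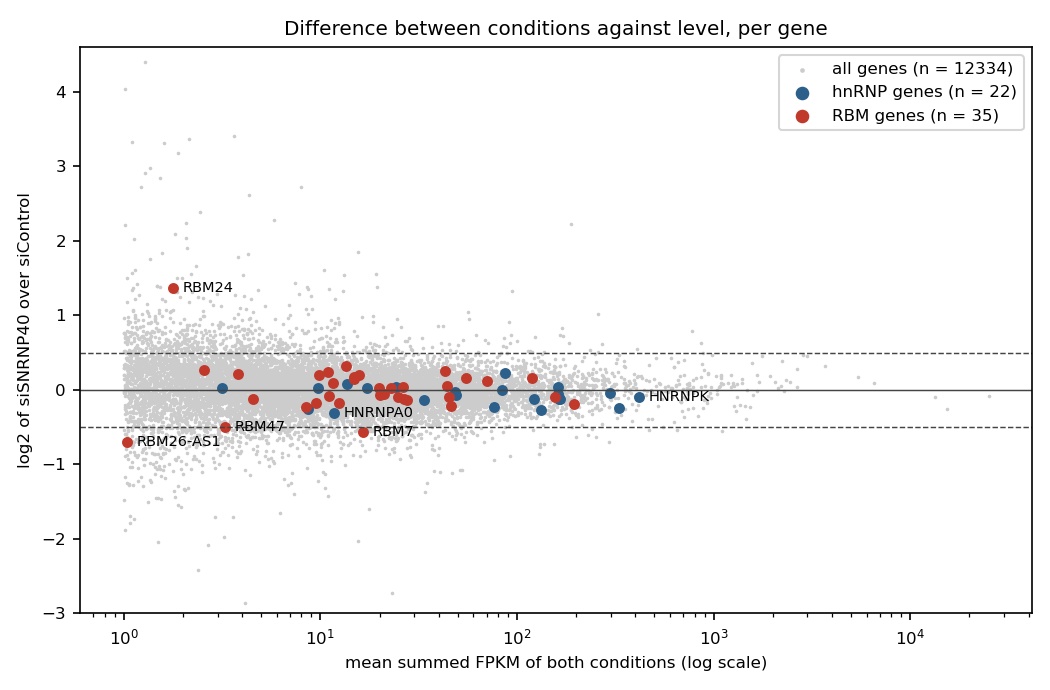
Each point is a gene, with its mean summed FPKM of both conditions on the x axis (log scale) and the log2 of siSNRNP40 over siControl on the y axis. Grey points are all 12334 genes, blue points the 22 hnRNP genes and red points the 35 RBM genes, and dashed lines mark 0.5 and -0.5. RBM24 stands above the upper line at 1.36, and RBM26-AS1, RBM7 and RBM47 lie below the lower one.

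The members with the highest levels were close to the same in both conditions. HNRNPK, which binds cytosine-rich RNA and DNA, had the highest level, at 431 FPKM in siControl and 404 FPKM in siSNRNP40 (log2 difference -0.09). HNRNPH1, which binds runs of G, stood at 360 and 303 FPKM (-0.25). HNRNPC, which binds runs of U and forms the core of the hnRNP particle, stood at 302 and 293 FPKM (-0.05). The order of these 3 genes was the same in both conditions. RBM39, a splicing factor that works with U2AF, followed at 208 and 183 FPKM (-0.19), and HNRNPA1, which acts at splicing silencers, at 173 and 159 FPKM (-0.12). HNRNPU, which attaches chromatin to nuclear RNA, stood at 170 and 157 FPKM (-0.12). HNRNPF, a relative of HNRNPH1, stood at 165 and 159 FPKM (-0.05). RBM3, induced by cold, was at 160 and 150 FPKM (-0.09), while HNRNPR was slightly higher, at 159 and 164 FPKM (0.04). Together with HNRNPA1P10, described below, these genes made up 62.5% of the members' FPKM in siControl, and 9 of the 10 were lower in siSNRNP40. Over the 12 members above 100 FPKM the median log2 difference was -0.11, against 0.02 over all 784 genes of that level.

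**Figure D2:**
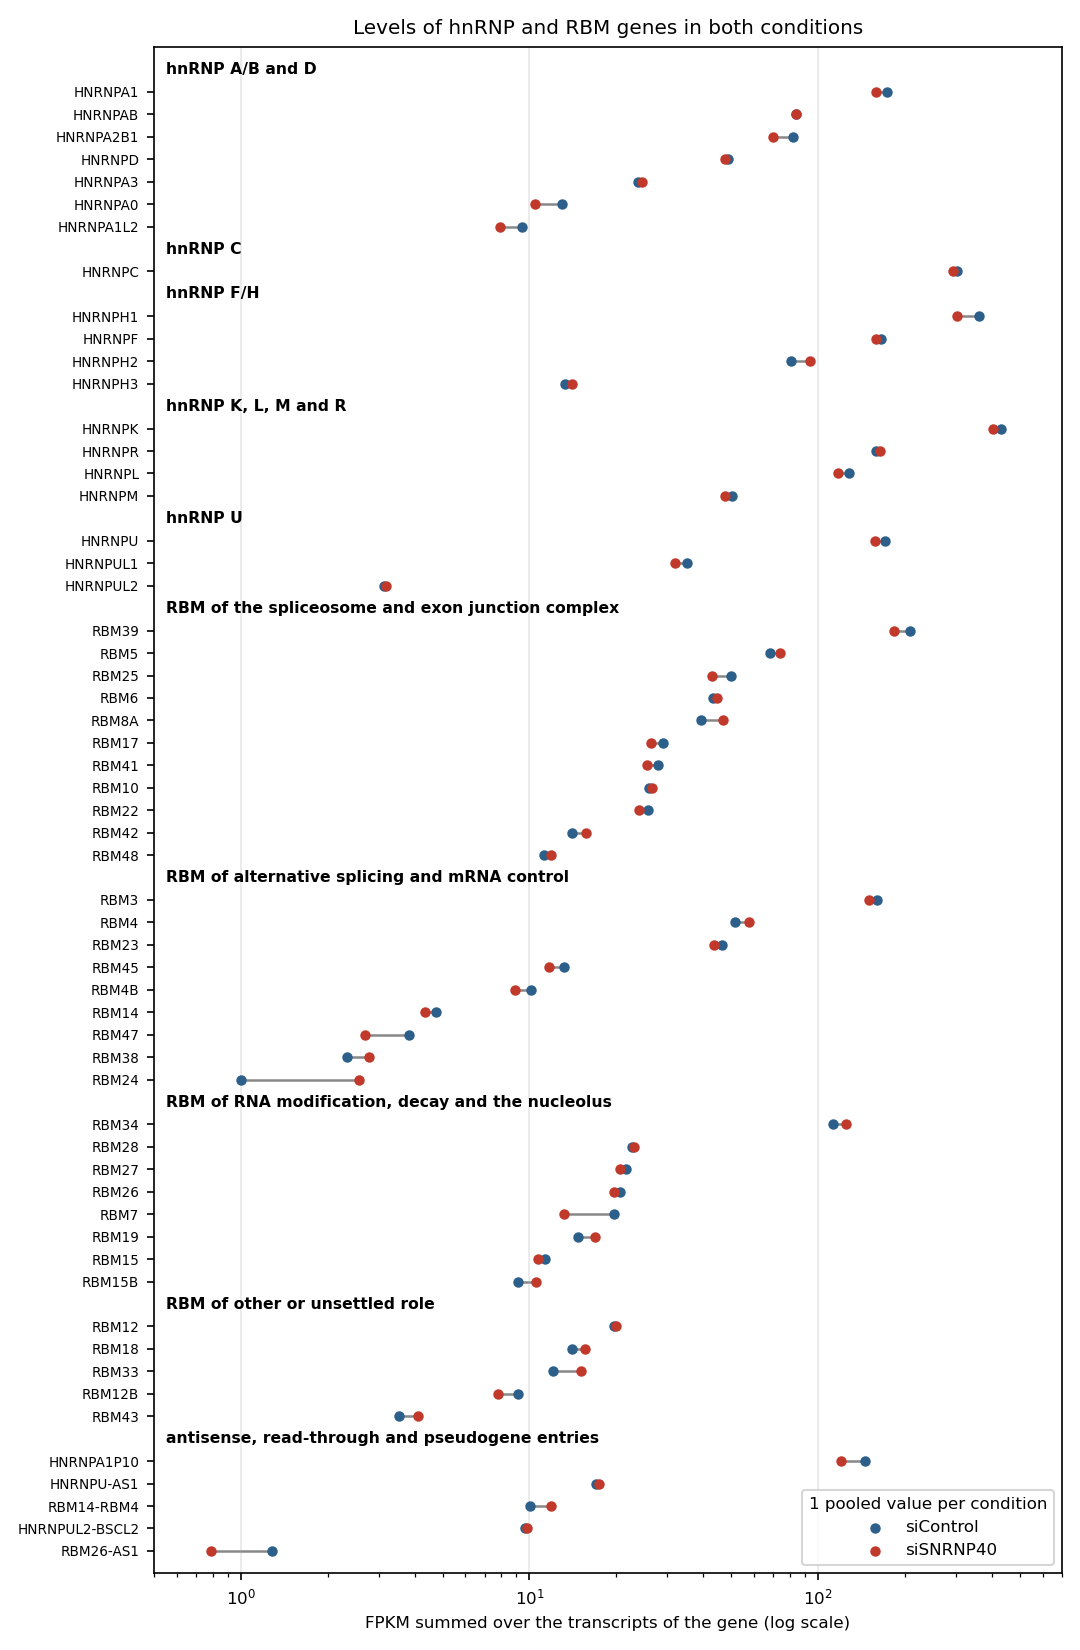
The FPKM summed over the transcripts of each gene is plotted on a log axis for the 57 members, grouped by role, with siControl in blue and siSNRNP40 in red. Each point is 1 pooled value. Most pairs nearly coincide from 431 FPKM (HNRNPK) down to 3.13 FPKM (HNRNPUL2), and the longest lines belong to RBM24, RBM26-AS1, RBM7 and RBM47.

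Among the hnRNP A/B and D genes, 6 of 7 were lower in siSNRNP40 and none passed 0.5. With upper-quartile scaling this count was 5. HNRNPA0, which binds AU-rich elements and is encoded by 1 exon, stood at 13.0 FPKM in siControl and 10.5 FPKM in siSNRNP40, and its log2 difference of -0.31 was the lowest of the hnRNP genes. Of genes between 5 and 25 FPKM, 19.0% differed by at least as much. HNRNPA2B1, which has been tied to recognition of methylated RNA, stood at 82.1 and 70.0 FPKM (-0.23), and HNRNPAB at 83.9 and 83.6 FPKM (-0.01). HNRNPD, the ARE-binding protein AUF1, was at 48.7 and 47.7 FPKM (-0.03), and HNRNPA3 was higher, at 23.8 and 24.5 FPKM (0.04). Only 3 of the 54 members annotated as protein-coding have a single-exon canonical transcript. Besides HNRNPA0 these were HNRNPA1L2, at 9.42 and 7.92 FPKM (-0.25), and RBM15B, at 9.16 and 10.5 FPKM (0.20), so they did not share a direction. The exon count comes from GENCODE and the values from the listed transcripts. HNRNPA1L2 has 2 of these, and the listed loci of HNRNPA1L2 and RBM15B are wider than the annotated genes. Their values may therefore not be those of single-exon transcripts only.

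The values of HNRNPA1 need its copies in view. The table lists HNRNPA1P10 at 145 FPKM in siControl and 120 FPKM in siSNRNP40 (-0.27), at the span of HNRNPA1 itself, chr12:54674488-54679030 of hg19, and under the same locus identifier. GENCODE places a processed pseudogene of that name elsewhere, at chr19:11776884-11777845. Counted with HNRNPA1, the locus stood at 318 and 279 FPKM (-0.19). Of the 945 coding bases of HNRNPA1 exons that could be placed in both copies, 4 differed in the chromosome 19 pseudogene and 14 in HNRNPA1L2. Of all 50-base windows along the canonical coding sequence, 83.2% of HNRNPA1 and 51.4% of HNRNPA1L2 were found again outside the gene, as were 93.6% of HNRNPA3, 58.2% of HNRNPC, 48.2% of RBM8A and 28.6% of HNRNPK. Over the 54 coding sequences searched, 10 had more than 10% of their windows elsewhere and 35 had none. The levels of those 10 genes are uncertain to the extent that fragments were shared among copies.

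In the other hnRNP families the direction was mixed. HNRNPH2, which differs from HNRNPH1 at few residues, was higher in siSNRNP40, at 80.7 and 94.0 FPKM (0.22), while HNRNPH1 was lower. The leading transcript of HNRNPH2 stood at 74.7 and 78.1 FPKM (0.06). HNRNPH2 shares its locus with RPL36A and with the read-through entry RPL36A-HNRNPH2, so its level rests on an estimated split of fragments. HNRNPH3 stood at 13.3 and 14.1 FPKM (0.08). HNRNPL, which binds CA repeats, was at 128 and 117 FPKM (-0.13), and HNRNPM at 50.3 and 47.8 FPKM (-0.08). HNRNPUL1 stood at 35.1 and 31.9 FPKM (-0.14), and HNRNPUL2 at 3.13 and 3.18 FPKM (0.02). HNRNPUL2 shares its locus with BSCL2 and with the read-through entry HNRNPUL2-BSCL2, which stood at 9.64 and 9.80 FPKM (0.02).

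Of the RBM genes of the spliceosome and exon junction complex, 6 of 11 were higher and 5 lower, none by more than 0.5, and the range was -0.22 to 0.25. RBM8A (Y14), a core protein of the exon junction complex, was at the upper end, at 39.3 FPKM in siControl and 46.7 FPKM in siSNRNP40. RBM25, which associates with the U1 particle, was at the lower end, at 49.7 and 42.8 FPKM. RBM5 and RBM6, paralogues that neighbour each other on the short arm of chromosome 3, stood at 67.9 and 73.6 FPKM (0.12) and at 43.2 and 44.6 FPKM (0.05). RBM17 (SPF45) was at 28.9 and 26.4 FPKM (-0.13), and RBM22, which contacts the catalytic core of the spliceosome, at 25.7 and 24.1 FPKM (-0.09). RBM41 and RBM48, both linked to the minor spliceosome, stood at 27.9 and 25.6 FPKM (-0.13) and at 11.2 and 11.9 FPKM (0.09), and RBM42 at 14.0 and 15.7 FPKM (0.17).

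The RBM genes of alternative splicing and mRNA control held the widest range. RBM24, a splicing regulator of heart and skeletal muscle, lies at chr6:17281809-17294099 and stood at 0.999 FPKM in siControl and 2.57 FPKM in siSNRNP40 (log2 difference 1.36). Of genes between 1 and 5 FPKM, 1.46% differed by at least as much. RBM38, its closest relative and a p53 target that acts on mRNA stability, stood at 2.33 and 2.79 FPKM (0.26). RBM47, a partner of the APOBEC1 editing enzyme at chr4:40425272-40631883, was lower, at 3.83 and 2.70 FPKM (-0.51), and 19.97% of genes of its level differed by at least as much. RBM4, a splicing and translation regulator, was at 51.7 and 57.8 FPKM (0.16). Its neighbours at the locus stood at 10.1 and 8.89 FPKM for RBM4B (-0.18), 4.74 and 4.34 FPKM for RBM14 (-0.13) and 10.0 and 11.9 FPKM for the read-through entry RBM14-RBM4 (0.24). RBM23 was at 46.5 and 43.6 FPKM (-0.09) and RBM45 at 13.2 and 11.7 FPKM (-0.18). The other 3 genes of this group, RBM20, RBM11 and RBM46, did not reach 1 FPKM. RBM20, which controls titin splicing in the heart, was at 0.245 and 0.374 FPKM.

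Among RBM genes of RNA modification, decay and the nucleolus, 4 of 8 were higher and 4 lower. RBM7, which brings RNA to the nuclear exosome as part of the NEXT complex, lies at chr11:114271384-114279635 and was listed as 1 transcript at 19.6 FPKM in siControl and 13.2 FPKM in siSNRNP40 (-0.57). Of genes between 5 and 25 FPKM, 4.66% differed by at least as much, and 25.4% of the 50-base windows of its coding sequence stand elsewhere in the genome. RBM26 and RBM27, of the PAXT connection that also feeds the exosome, stood at 20.6 and 19.6 FPKM (-0.07) and at 21.5 and 20.6 FPKM (-0.06). RBM15 and RBM15B, adaptors of the m6A methyltransferase, lay on opposite sides of 0, with RBM15 at 11.3 and 10.7 FPKM (-0.09) and RBM15B as given above. The nucleolar proteins RBM34, RBM28 and RBM19 stood at 112 and 125 FPKM (0.16), at 22.6 and 23.0 FPKM (0.03) and at 14.7 and 16.9 FPKM (0.20).

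Of the 5 RBM genes of other or unsettled role that passed, 4 were higher. RBM33, linked to removal of m6A, stood at 12.05 and 15.03 FPKM (0.32), after RBM24 the largest positive difference of the 57. RBM18 was at 14.1 and 15.6 FPKM (0.15), RBM43 at 3.54 and 4.11 FPKM (0.22) and RBM12, whose locus is shared with CPNE1, at 19.6 and 19.98 FPKM (0.03). RBM12B was lower, at 9.14 and 7.77 FPKM (-0.24).

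The antisense entries are each listed beside their partner gene, and the listed spans do not overlap. The GENCODE spans of the partner genes on GRCh37 do overlap the listed antisense spans. HNRNPU is annotated at chr1:245003940-245027862, and HNRNPU-AS1 is listed at chr1:244998639-245010243. On chromosome 13, RBM26 is annotated up to 79980612, and RBM26-AS1 is listed from 79980444. RBM26-AS1 was lower, at 1.28 FPKM in siControl and 0.790 FPKM in siSNRNP40 (-0.70), and 10.1% of genes between 1 and 5 FPKM differed by at least as much. HNRNPU-AS1 stood at 17.1 and 17.4 FPKM (0.03), where HNRNPU was slightly lower. Whether the authors counted by strand is not given in the sources used here. RefSeq promoters (GRCh38.p14, 250 bases before to 50 after the start) were matched for 50 of the 57 members, as 64 promoter sequences. The palindrome TCTCGCGAGA, an element described in the HNRNPK promoter, was searched on both strands, which for a palindrome are the same. It stood in 4 of these 64 promoters (6.25%), against 0.794% of 12345 promoters of genes that passed the limit and 0.424% of all 35116. The 4 belonged to HNRNPK, HNRNPH3, RBM26 and RBM26-AS1. RBM26 and RBM26-AS1 hold the same site, which lies 66 bases before the start of RBM26-AS1 and is counted for both. The element was already described in the HNRNPK promoter, so that match was fixed before the search. For these reasons the percentages cannot show whether members hold the palindrome more often than other genes. The sites are shown with 10 bases on each side and the palindrome in capitals.
HNRNPK, chr9:83980653-83980682, minus strand: agttgttagaTCTCGCGAGAggttcgcccc
HNRNPH3, chr10:68331971-68332000, plus strand: gactttcccgTCTCGCGAGAgtggggccgg
RBM26-AS1, chr13:79406233-79406262, plus strand: tgccggtaaaTCTCGCGAGAattgatgaag
The 4 genes with the palindrome differed between conditions by -0.09 (HNRNPK), 0.08 (HNRNPH3), -0.07 (RBM26) and -0.70 (RBM26-AS1). A match describes these letters and does not show that a factor binds there.

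Single transcripts differed more than the sums. Of 105 member transcripts with a mean of at least 1 FPKM, 14 differed by more than 1 on the log2 scale (13.3%), against 10.5% of 16691 transcripts in the table. There were 7 higher and 7 lower, in 9 genes. Genes whose sum differed by less than 0.5 held 13 of the 14, but only 4 of the 57 members differed by more than 0.5. A count like the 13 was not taken over all transcripts. Over all features, too, more transcripts (10.5%) than genes (1.47%) differed by more than 1. Of the 14, 2 had the highest mean FPKM of their gene (in RBM10 and RBM24), and 8 had a mean under 5 FPKM. HNRNPR, for example, had 2 minor transcripts that were higher, at 2.73 and 12.04 FPKM (2.14) and at 1.19 and 4.05 FPKM (1.77), beside a leading one at 115 and 114 FPKM. RBM39 had 2 such transcripts among its 8, at 0.243 and 2.62 FPKM and at 0.321 and 2.24 FPKM, which together were a small part of its 183 FPKM in siSNRNP40. In HNRNPH2 the minor transcript was higher, at 5.94 and 15.9 FPKM (1.42). Minor transcripts that were lower included those of RBM6 (2.73 and 0.431 FPKM), RBM34 (1.91 and 0.368 FPKM) and HNRNPA1L2 (2.53 and 1.14 FPKM).

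**Figure D3:**
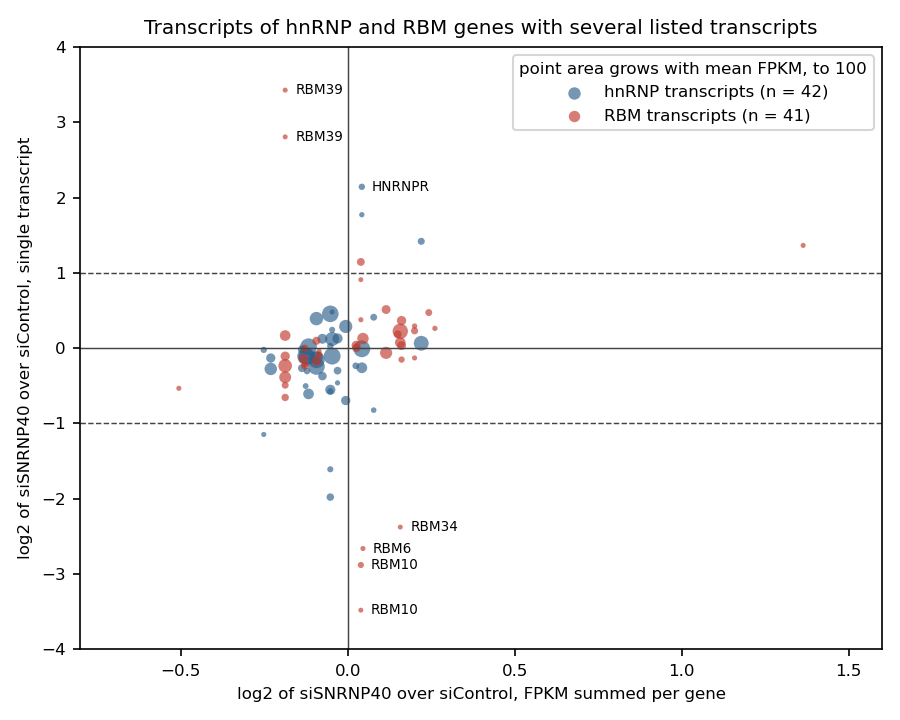
Each of the 83 points is a transcript with a mean of at least 1 FPKM, from a member with several listed transcripts, with the log2 difference of the gene's sum on the x axis and of the transcript on the y axis. Blue points are hnRNP and red points RBM transcripts, dashed lines mark 1 and -1, and larger points have a higher mean FPKM. The points beyond the lines are mostly small and stand close to 0 on the x axis, with RBM24 at the far right.

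The make-up of a gene was then read from the share of its FPKM that each transcript held, for the 35 members with at least 2 listed transcripts. The share of a transcript moved by at least 20 percentage points in 3 of 35 (8.57%), against 20.7% of 5282 genes, and the leading transcript was another one in 1 of 35 (2.86%), against 14.8%. In 27 of 35 no share moved by 10 points (77.1%, against 59.0% of all genes). The median of the largest move was 5.01 points against 7.35 points over all genes. Share moves were not read against genes of the same level, and the 57 members had higher levels (median 24.1 FPKM against 10.7 FPKM). These comparisons therefore cannot show whether members keep their shares more than other genes of their level do. HNRNPK, with 4 listed transcripts, kept its leading one at 50.1% and 48.0% of its FPKM.

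RBM10, an X-linked splicing factor that favours exon skipping, showed the largest move of the 35. Its sum was nearly equal, at 26.0 FPKM in siControl and 26.7 FPKM in siSNRNP40 (0.04). The transcript that led in siControl stood at 10.97 and 1.49 FPKM, or 42.3% and 5.57% of the gene, while the second stood at 9.65 and 21.3 FPKM, or 37.2% and 79.9%. Transcript 3 also differed, at 2.01 and 0.179 FPKM, and transcripts 4, 5 and 6 each held under 8% in both conditions. In HNRNPF, whose canonical coding sequence is not interrupted by introns, the leading transcript stood at 82.3 and 113 FPKM, or 49.8% and 70.8% of the gene. Transcripts 2 and 3 were lower, at 37.2 and 25.3 FPKM and at 21.1 and 5.35 FPKM. In RBM47 the moves rest on low values: transcript 2 stood at 1.22 FPKM in siControl and near 0 in siSNRNP40, and transcript 3 at 0.429 and 1.19 FPKM, or 11.2% and 44.2% of the gene. The identifiers carry no exon structure, so the exons by which these transcripts differ are not described here, and the split of fragments among overlapping transcripts is itself an estimate.

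**Figure D4:**
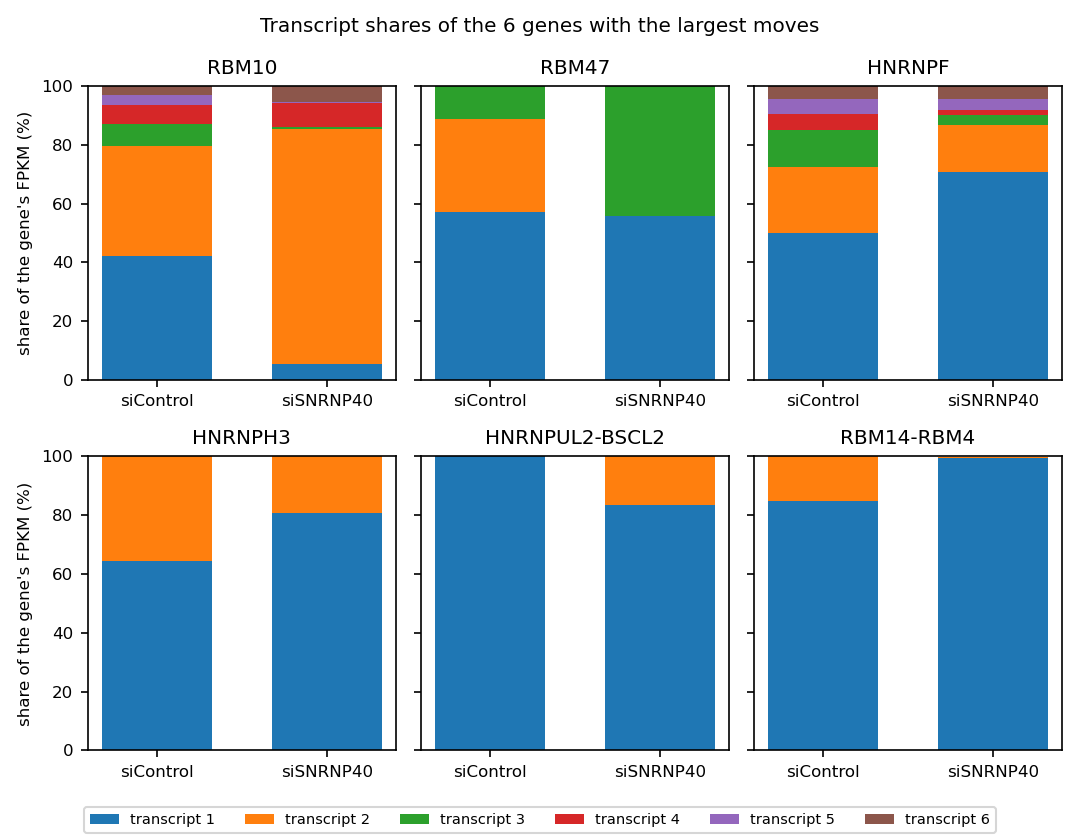
Stacked bars give the share of each gene's FPKM (percent, y axis) held by its listed transcripts in siControl and siSNRNP40, numbered by their FPKM in siControl, for the 6 members with the largest move. In RBM10 the second transcript goes from 37.2% to 79.9%, and in HNRNPF the first goes from 49.8% to 70.8%. HNRNPH3, HNRNPUL2-BSCL2 and RBM14-RBM4 moved by 16.6, 16.5 and 14.6 points. In the 2 read-through entries the move rests on a transcript of low FPKM. It stood at 0 in siControl and 1.62 FPKM in siSNRNP40 for HNRNPUL2-BSCL2, and at 1.51 and 0.056 FPKM for RBM14-RBM4.

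Other RNA-binding proteins of similar function, which the symbol rule does not include, were read in the same way. Of 32 genes listed for this purpose 29 passed the limit, with a median log2 difference of -0.07. Of these 10 were higher and 19 lower, where 49.5% of all genes were lower. MBNL2, a muscleblind splicing regulator, was the 1 gene of 29 beyond 0.5, against 10.3% of all genes. It stood at 16.02 FPKM in siControl and 9.35 FPKM in siSNRNP40 (-0.78). A share moved by at least 20 points in 4 of the 22 with several transcripts, against 20.7% of 5282 genes.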

How the data were processed

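Per the methods and labels, adapters and low-quality bases were removed by the authors with cutadapt 1.2.1. TopHat 2.0.8 placed the reads on hg19, Cufflinks and cuffmerge built a merged set of transcripts, and cuffdiff 2.0.2 gave each transcript its level. These levels were deposited as FPKM, which the authors scaled for transcript length and mapped fragments, with the 2 libraries of a condition pooled into 1 value. The table also holds the authors' own log2 fold changes, test statistics, p-values and q-values, which were not used here. FPKM was summed per gene symbol, and log2 of siSNRNP40 over siControl was taken without a pseudocount. Features needed a mean of at least 1 FPKM. No new test was possible on 1 pooled value per condition, and the authors' own tests were left out. The main counts are therefore given beside the same counts over all features.

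The genes, families and lists were chosen with earlier results of these data known, and the promoter palindrome was chosen after the values were seen. Named with full values were the 10 most abundant members, the 5 largest differences in each direction, members with a share move of at least 20 points, HNRNPA0 and HNRNPA1. The others are named by family. Listed loci start counting from 0 and were written from 1. Annotation and copies came from GRCh37 with GENCODE release 44: of the 57 members, 56 were found by symbol, and for 55 the listed locus overlapped the annotated gene. Copies were exact 50-base windows of the coding sequence on either strand of the assembled chromosomes. Software was Python 3.11.15 (pyfaidx 0.9.0.4, pandas 2.3.3, numpy 2.4.6), and the calculations were tested on simulated data. Alternatives changed the filter, pseudocount, scaling, threshold and summing.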

Additional observations from a re-analysis of the deposited data

How the results depend on the processing

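Each number rests on 1 pooled value per condition. From these values neither the spread between libraries nor counting error could be calculated, and leaving out a library was not possible. No paired analysis was possible because the table pools the libraries of each condition. The number of members that differed by more than 0.5 was 4 of 57. It became 7 of 62 without a filter and 1 of 50 with a mean of at least 5 FPKM. Of the same 57 it became 2 with a pseudocount of 1, and 1 at a threshold of 1. It was 3 with upper-quartile scaling and 5 with the most expressed transcript in place of the sum. The number of transcripts beyond 1 was 14 of 105, and became 24 of 121 without a filter and 6 of 82 with a mean of at least 5 FPKM. Counts over all features were not taken under the other filters, pseudocount or scaling. The number of genes with a share move was 3 of 35, and became 8 of 35 at a limit of 10 points. The median log2 difference of the members lay between -0.06 and -0.02 under every alternative run. With entries for antisense, read-through and pseudogene RNA left out, 3 of 52 members differed by more than 0.5. With HNRNPA1P10 counted with HNRNPA1, 4 of 56 did. Both settings were chosen after seeing the data. Of 80 log2 differences of 20 named genes under 4 alternatives, 73 moved by less than 0.1 and 7 by more. With a pseudocount of 1, RBM24 was at 0.84, RBM47 at -0.39 and RBM26-AS1 at -0.35. With the most expressed transcript, RBM10 was at 1.14, HNRNPF at 0.45, RBM14-RBM4 at 0.47 and HNRNPU at 0.02. The cause of these moves was not tested.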
